A study of Mus musculus with 2 samples.

Results

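The HOX genes lie in 4 clusters, A to D, and encode homeodomain transcription factors that set the position of a cell along the body axis. Within a cluster the order of the genes follows the order in which they act from head to tail, so genes are numbered by paralogue group, from group 1 at the 3′ end to group 13 at the 5′ end of the cluster. Mesenchymal cells of the adult body, fibroblasts among them, are known to keep part of the HOX pattern of the place they came from, and cells of the heart arise from progenitors in which anterior HOX genes respond to retinoic acid. The HOX genes described here are those whose name on the array was Hoxa, Hoxb, Hoxc or Hoxd followed by a number alone. These were 39 genes with 52 probes, of 37074 gene names on the array: 11 genes in cluster A, 10 in B, 9 in C and 9 in D.

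RNA came from MCMs, mouse cardiomyocytes purchased in culture, then passaged and grown in DMEM with 2% FBS. A culture transfected with siRNA-NC, a negative control, was compared with a culture transfected with siRNA-*Ppp2r5d*, which targets a regulatory subunit of protein phosphatase 2A. Both cultures received glucose-free medium from 48 h after transfection and were harvested for RNA at 64 h. Each condition had 1 one-colour Agilent array, so differences between the arrays carry no p-value and no error from replicate cultures. The strain, sex and age of the mice behind these cells were not given in the sources used here.

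The siRNA target itself had an intensity of 4701 with siRNA-NC and 676 with siRNA-*Ppp2r5d*, 6.09-fold lower after scaling each array by its 75th percentile. The scanner software flags a usable signal as well above background, and 59.9% of 59305 non-control spots carried this flag with siRNA-NC and 59.3% with siRNA-*Ppp2r5d*. Of 15 cardiomyocyte markers, 8 were well above background with siRNA-NC and 11 with siRNA-*Ppp2r5d*, and *Actn2*, *Myl2*, *Myl7* and *Pln* were so on neither array. Of 12 fibroblast markers 11 were well above background on each array, as were 5 of 5 smooth muscle markers and 4 of 6 macrophage markers, with *Adgre1* and *C1qa* off. Endothelial markers reached 1 of 7 with siRNA-NC and 2 of 7 with siRNA-*Ppp2r5d*. Some of these markers moved between the arrays. With siRNA-*Ppp2r5d*, 3 cardiomyocyte markers were at least 1.5-fold higher, *Ttn*, *Myl3* and *Nppa* (1.85-fold, 1.87-fold and 1.54-fold). *Nppa* rested on 1 probe, at 16.6 with siRNA-NC and 22.4 with siRNA-*Ppp2r5d*, and its other probe was off. The lowest signals well above background were 14.9 and 13.5 on these arrays, so *Nppa* lay near that limit. *Myl3* was dim as well, at 40.4 and 66.2. Also at least 1.5-fold higher were the fibroblast markers *Lum* and *Pdgfra* (2.12-fold and 1.54-fold) and the smooth muscle markers *Cnn1* and *Tagln* (5.32-fold and 1.80-fold). The macrophage markers *Cd68* and *Lyz2* were 1.71-fold and 1.60-fold lower. Among all genes, 3.86% rose and 5.43% fell by 1.5-fold or more. Of markers measured on both arrays, 2 of 8 for cardiomyocytes, 5 of 11 for fibroblasts and 3 of 5 for smooth muscle were lower. Of all genes measured on both arrays, 45.9% were lower. The median log2 fold changes (siRNA-*Ppp2r5d* minus siRNA-NC) of these lists were 0.325, 0.122 and -0.02. The smooth muscle list thus did not rise as a whole. The part of any cell type in the HOX signal, or in the changes below, was not tested. In bulk RNA, fewer cells that express a gene and less RNA of it per cell cannot be told apart.

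Few of the 60-base probes for HOX genes reach the core of the homeobox, the part the genes share. A search for the codons of the conserved core of the recognition helix, the helix by which a homeodomain contacts DNA, found it in 2 of 52 HOX probes, of *Hoxb3* and *Hoxc11*, and in 5 of 56605 probes of all genes. Both of these HOX probes gave signal. That of *Hoxc11* is shown as an example, with the codons in capitals.

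*Hoxc11*, chr15:102787015-102787074, plus strand: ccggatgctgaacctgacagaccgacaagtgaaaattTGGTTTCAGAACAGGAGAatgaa

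Positions are of mouse build mm9, as the scanner files give them. The transcripts that the array annotation assigns to the *Hoxb3* probe with these codons include one of *Hoxd3*, its paralogue in cluster D, so its signal is not particular to *Hoxb3*. *Hoxc8*, 1 of the 2 genes whose signal moved most with siRNA-*Ppp2r5d*, was measured by 1 probe, whose first 30 of 60 bases follow. Which exon or untranslated region it lies in was not analysed here.

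*Hoxc8*, chr15:102823887-102823946, plus strand: tctgaggctctttccttagaaaaaccccct

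Whole clusters differed in detection. With siRNA-NC, 21 of 39 HOX genes had a probe well above background, against 57.0% of all gene names. With siRNA-*Ppp2r5d* the number was again 21, against 56.4% of all gene names. The same 21 genes were on in both, against 54.9% of all gene names and 67.0% of the 19365 names that are protein-coding symbols in RefSeq. As 1 family the HOX genes were thus close to the share of all gene names and below that of protein-coding symbols, and the clusters differed from each other: 11 of 11 genes of cluster A and 9 of 9 of cluster C were on, against 1 of 10 of cluster B and 0 of 9 of cluster D. No HOX probe was well above background on 1 array and below it on the other.

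**Figure D1:**
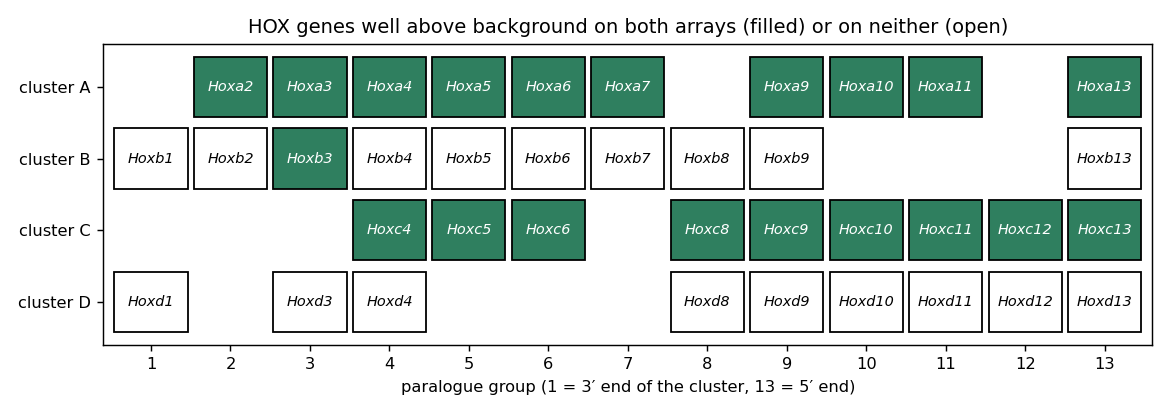
HOX genes by cluster (rows) and paralogue group (columns). Filled boxes passed the background flag on both arrays and open boxes on neither. The plot draws 38 of the 39 genes, and in clusters A and C all 19 boxes drawn are filled, against 1 in B and 0 in D.

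Detection did not follow position along the axis. Genes from both ends of the order were on, from *Hoxa2*, a gene of the hindbrain and pharyngeal arches, to *Hoxa13* and *Hoxc13*, genes of the most distal and caudal structures. In each of the groups 4 and 9, which have a gene in all 4 clusters, the A and C members were on and the B and D members were off. In group 13, which also has 4, *Hoxa13* and *Hoxc13* were on and *Hoxb13* and *Hoxd13* were off. *Hoxb3* of group 3, which has no C member, was the gene on outside clusters A and C.

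The flag is set from the signal of the spot, so the intensities below describe the split and are no separate support for it. In clusters A and C, 25 of 27 probes were well above background on both arrays, with intensities from 28.7 to 10062 with siRNA-NC and from 16.5 to 9889 with siRNA-*Ppp2r5d*. The 2 others were the remaining probe of *Hoxa3*, at 12.6 and 2.80, and a second probe of *Hoxc13*, at 3.06 and 2.68. In clusters B and D, 22 of 25 probes were off, at 2.99 to 11.7 with siRNA-NC and 2.67 to 4.63 with siRNA-*Ppp2r5d*. For 18 of these the software had replaced the signal by a substitute value on both arrays, so their numbers have no order. Levels of different probes are not compared with each other, since probes differ in how well they bind.

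A looser flag of the software, a signal positive and significant over background, added 2 genes. *Hoxb9* then counted at 11.7 and 4.27, and *Hoxd13*, a gene of digits and genitalia, at 6.14 and 4.63. With siRNA-NC alone, *Hoxd4* at 4.96 and a probe of *Hoxd8* at 4.62 passed it too. The 11 genes of cluster A and 9 of cluster C passed it on both arrays. *Hoxb2* had a probe on the minus strand, opposite to the other genes of its cluster, but its second probe, on the plus strand, was also off.

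*Hoxb3*, which acts in the hindbrain and the pharyngeal arches, was the exception in cluster B. The probe that holds the homeobox codons had 74.6 with siRNA-NC and 70.8 with siRNA-*Ppp2r5d*. A second probe had 40.5 and 50.6. The last probe, which the scanner files place over chr11:96202427-96205434, an interval far longer than the probe, had 51.9 and 33.7. The log2 fold changes were 0.12, 0.52 and -0.43, so the 3 probes disagreed in direction and their mean was 0.067. The only probe of *Hoxd3* had 3.05 and 2.75 and was off, and 2 of the 3 *Hoxb3* probes carry no *Hoxd3* transcript in their annotation.

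Probes of other transcripts inside the clusters were few, and were on more often in clusters A and C than in B and D. Between the outermost HOX probes of cluster A, 8 of 11 other probes were well above background on both arrays. In cluster C (chr15:102759058-102867272) these were 2 of 2. In cluster B (chr11:96057854-96228510) they were 4 of 12 and in cluster D (chr2:74509248-74603059) 2 of 9. Of all non-control spots, 59.9% carried the flag with siRNA-NC and 59.3% with siRNA-*Ppp2r5d*. The comparison of other transcripts between clusters was added after the data were seen.

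The antisense transcript of *Hoxa11*, *Hoxa11os*, had 11118 and 8864 on its 2 probes with siRNA-NC, and 10779 and 8423 with siRNA-*Ppp2r5d*. *Hottip*, a non-coding RNA at the 5′ end of cluster A, had 27.3 and 29.3. HOTAIR, a non-coding RNA of cluster C, had 413 with siRNA-NC and 392 with siRNA-*Ppp2r5d*. All of these were on, and their log2 fold changes were 0.13 for *Hoxa11os* (the mean of its 2 probes), 0.30 for *Hottip* and 0.12 for HOTAIR.

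In cluster B non-coding signal was also measured away from *Hoxb3*. *Hoxb5os*, antisense to *Hoxb5*, had 73.7 with siRNA-NC and 37.9 with siRNA-*Ppp2r5d* on 1 probe, 1.70-fold lower, and was off on the other, while *Hoxb5* itself had 3.03 and 2.73. A long non-coding interval of cluster B had a probe for each strand. These had 282 and 382 on the minus strand and 31.4 and 38.6 on the plus strand. Both were higher with siRNA-*Ppp2r5d*, by 1.55-fold and 1.40-fold. A plus-strand probe of an overlapping interval had 45.6 and 47.5, 1.19-fold higher. In cluster D *Haglr*, a non-coding RNA between *Hoxd1* and *Hoxd3*, was on at 55.1 and 45.1, and both probes of *Hoxd3os1* were off.

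**Figure D2:**
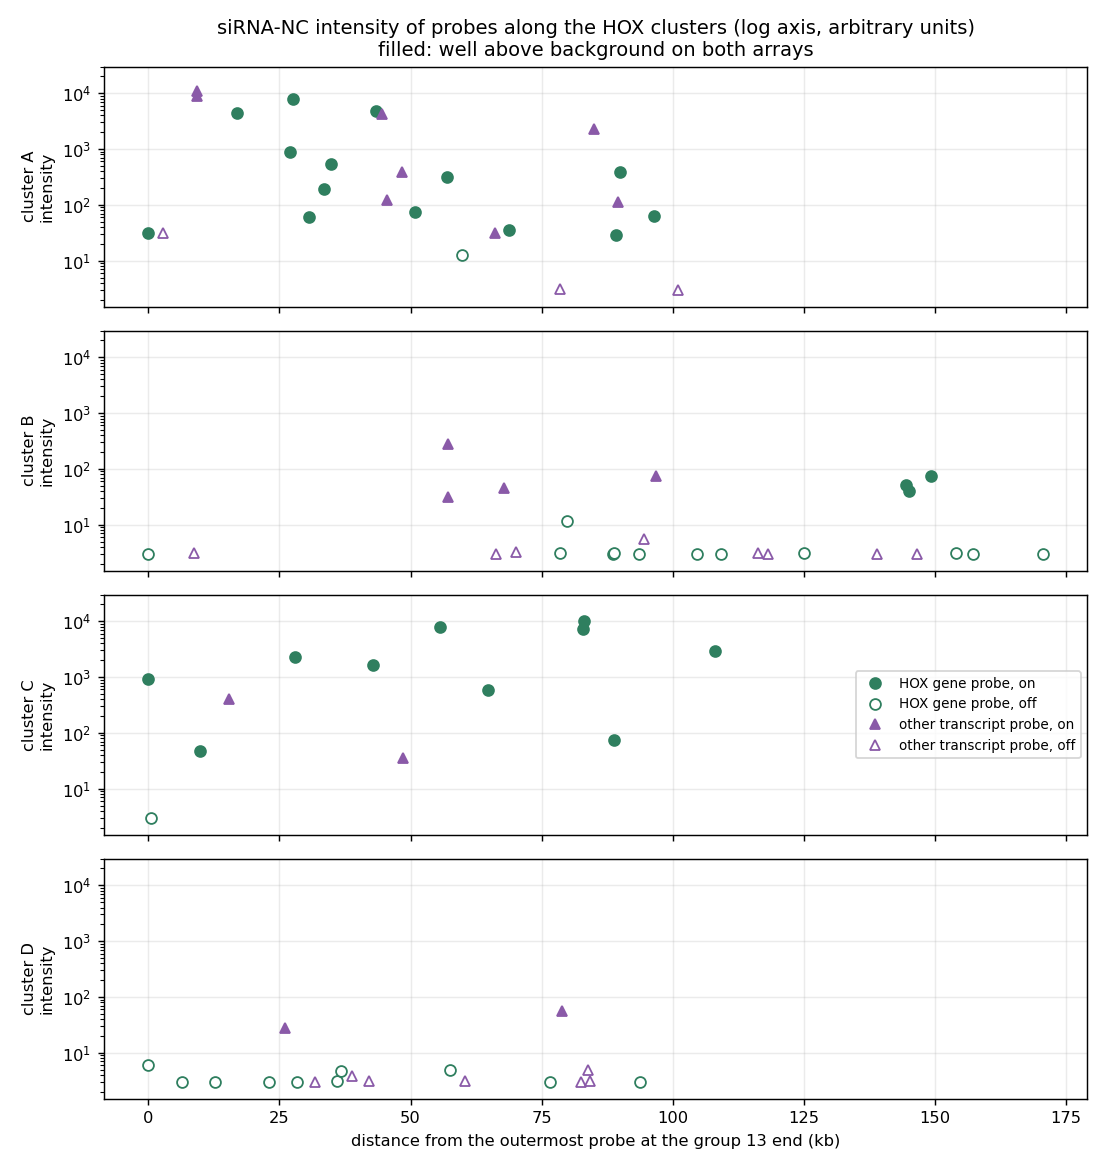
Processed intensity with siRNA-NC (log axis, arbitrary units) of the probes inside each HOX cluster, against the distance in kb from the outermost HOX probe at the group 13 end. Circles are HOX gene probes and triangles other transcripts, and filled marks passed the background flag on both arrays. In clusters A and C 24 of the 26 circles drawn are filled, against 3 of 25 in clusters B and D, where the open circles lie near the substitute value. Heights of different probes are not comparable as expression levels.

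Promoters were compared between the clusters that were on and those that were off. RefSeq promoters of assembly GRCm38.p6, 300 bases from 250 before to 50 after a start, were at hand for 22 of 39 HOX genes, with 24 starts. Of cluster C only *Hoxc4* was among them, and of cluster B only *Hoxb1*, *Hoxb4* and *Hoxb8*. The comparison is thus mainly of cluster A with cluster D. CpG dinucleotides, the sites of DNA methylation, numbered 4 to 45 with a median of 15 over 11 starts in clusters A and C, and 4 to 37 with a median of 14 over 13 starts in clusters B and D. The median over all 32851 promoters was 7. GC content had medians of 57.3% and 58.0%, against 52.7% over all promoters.

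Pairs of promoters from paralogue groups 13 and 4 are shown because 1 of each pair was on and the other off. They are the 250 bases before the start on the gene's strand, with each CpG in capitals, in the coordinates of GRCm38.p6.

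*Hoxa13* (on), chr6:52260881-52261130, minus strand, 35 CpG: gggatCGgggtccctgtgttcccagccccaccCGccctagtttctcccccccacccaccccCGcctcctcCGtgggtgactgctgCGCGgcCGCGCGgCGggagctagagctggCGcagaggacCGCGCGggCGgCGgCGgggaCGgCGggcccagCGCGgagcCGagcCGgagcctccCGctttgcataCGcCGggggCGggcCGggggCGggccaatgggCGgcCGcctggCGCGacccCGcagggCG

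*Hoxd13* (off), chr2:74667975-74668224, plus strand, 31 CpG: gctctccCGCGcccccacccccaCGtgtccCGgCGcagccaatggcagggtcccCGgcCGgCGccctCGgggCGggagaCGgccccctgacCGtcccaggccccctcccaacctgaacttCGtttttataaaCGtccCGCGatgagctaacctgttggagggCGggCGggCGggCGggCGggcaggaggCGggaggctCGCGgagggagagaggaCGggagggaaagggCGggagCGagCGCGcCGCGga

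*Hoxc4* (on), chr15:103034145-103034394, plus strand, 8 CpG: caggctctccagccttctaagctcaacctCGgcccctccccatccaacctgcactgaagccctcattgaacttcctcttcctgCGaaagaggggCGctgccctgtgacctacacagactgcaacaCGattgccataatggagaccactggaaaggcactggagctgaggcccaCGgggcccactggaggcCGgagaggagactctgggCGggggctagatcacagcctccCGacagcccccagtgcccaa

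*Hoxd4* (off), chr2:74721728-74721977, plus strand, 3 CpG: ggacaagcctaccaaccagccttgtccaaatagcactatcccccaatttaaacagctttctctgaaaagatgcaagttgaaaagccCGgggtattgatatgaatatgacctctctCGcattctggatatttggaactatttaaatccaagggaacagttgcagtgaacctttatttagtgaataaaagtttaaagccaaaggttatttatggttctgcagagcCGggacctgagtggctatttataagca

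Over the full 300 bases the promoters held 45 CpG for *Hoxa13* and 37 for *Hoxd13*, and 9 for *Hoxc4* and 4 for *Hoxd4*, of which that of *Hoxd4* is below the median of all promoters. In both pairs shown the gene that was on had more CpG, but this did not hold for every such pair. *Hoxb4* (off) held 14 against 9 for *Hoxc4*, and *Hoxa9* (on) held 4 against 20 for *Hoxd9* (off). *Hoxa3* (on) and *Hoxd3* (off) each held 20. The sequence TGATTNAT, bound by HOX proteins together with PBX, was searched on both strands of the 300 bases. It was found in 2 of 24 HOX promoters, those of *Hoxa2* (on) and 1 of 2 starts of *Hoxd11* (off), against 3.22% of all promoters. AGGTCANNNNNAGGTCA, a spaced repeat bound by retinoic acid receptors, was found in 0 of 24 HOX promoters and in 3 of 32851 promoters of all genes. These letters were searched in these windows only, and a match is not a measured site.

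With siRNA-*Ppp2r5d* most of the HOX genes that were on changed by less than 1.5-fold. The log2 fold change (siRNA-*Ppp2r5d* minus siRNA-NC, after scaling) had a median of -0.044 over the 21 genes, against 0.026 over 20350 genes of all kinds measured on both arrays. It was below 0 for 13 and above 0 for 8, but under scaling to spike-in probes, which moved the median of all genes by -0.21, it was below 0 for 19 of 21. Under both scalings 13 of the 21 lay below the median of all genes. Of the 21, 1 gene was at least 2-fold lower, against 1.46% of the 21669 genes that were on in 1 array or both, and 0 were at least 2-fold higher, against 1.08%. At 1.5-fold, 2 genes were lower and 0 higher, against 5.43% and 3.86% of all genes. The error that the scanner software gives for each spot, carried to the log2 fold change of a gene, was 0.13 to 0.28, and it leaves out differences between cultures.

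**Figure D3:**
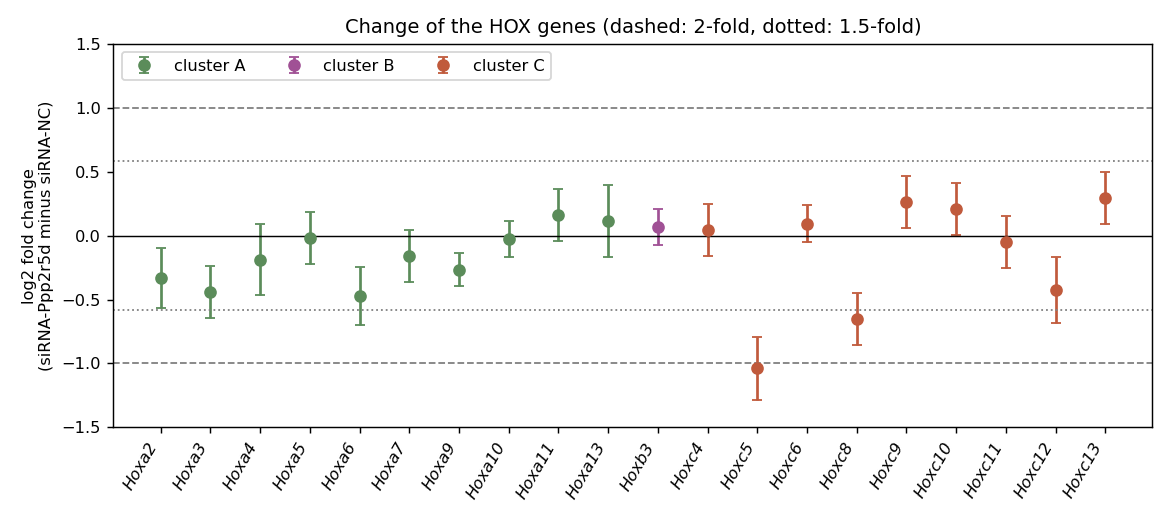
Log2 fold change (siRNA-*Ppp2r5d* minus siRNA-NC) of 20 of the 21 HOX genes on both arrays, in cluster order. Points are means over probes, bars are the scanner's error for the spots, dashed lines mark 2-fold and dotted lines 1.5-fold. *Hoxc5* at -1.04 lies past the 2-fold line and *Hoxc8* at -0.65 past the 1.5-fold line, and the other 18 drawn lie between the dotted lines.

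*Hoxc5* was the gene past 2-fold. Its probe had 76.3 with siRNA-NC and 32.5 with siRNA-*Ppp2r5d*, a log2 fold change of -1.04 with a scanner error of 0.25. The signal is dim. Among 1867 genes whose brightest usable probe had a siRNA-NC intensity from 50 to 100, 3.48% were at least 2-fold lower. Under normexp background correction with an offset of 50, which draws dim signals together, the value was -0.43, and under quantile normalization it was -0.99, just short of 2-fold.

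*Hoxc8*, a gene of thoracic vertebrae and spinal neurons, had 596 with siRNA-NC and 333 with siRNA-*Ppp2r5d*. Its log2 fold change was -0.65 with a scanner error of 0.20, or 1.57-fold lower, on a probe far brighter than the background. *Hoxc5* and *Hoxc8* are on either side of *Hoxc6* in the cluster. *Hoxc6* had 7191 and 10062 on its 2 probes with siRNA-NC and 6372 and 9889 with siRNA-*Ppp2r5d*, log2 fold changes of 0.018 and 0.17, so it did not move with them.

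The rest of cluster C lay within 1.5-fold. *Hoxc9*, which specifies thoracic motor neurons, had 8027 and 8416, a log2 fold change of 0.26. *Hoxc13*, a gene of hair and nails, had 927 and 996, the highest of the HOX changes at 0.30. *Hoxc12* had 47.1 and 30.7, a log2 fold change of -0.42. Between these, *Hoxc4*, *Hoxc10* and *Hoxc11* ran from -0.049 to 0.21. Over the 9 genes of cluster C the median was 0.043, with 5 genes above 0 and 4 below.

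In cluster A, 9 of 11 genes were below 0 and none passed 1.5-fold, with a median of -0.16 and a range from -0.47 to 0.16. *Hoxa6* had 75.9 with siRNA-NC and 47.9 with siRNA-*Ppp2r5d*, the lowest value of the cluster at -0.47. *Hoxa3*, needed for the thymus and parathyroid glands, had 391 and 285 on 1 probe and 28.7 and 16.5 on another. Each of its usable probes were lower, with log2 fold changes of -0.27 and -0.61 and a mean of -0.44. *Hoxa9*, which acts in blood progenitors, was lower on each of 3 probes, with log2 fold changes of -0.20, -0.53 and -0.073.

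Further genes of cluster A lay within 1.5-fold as well. *Hoxa5*, a gene of the lung and cervical vertebrae, had 316 and 273, a log2 fold change of -0.018. *Hoxa10*, which patterns the uterus and lumbar vertebrae, had 7756 and 6784 on 1 probe and 873 and 737 on the other, at -0.001 and -0.051. *Hoxa11*, a gene of the forearm and lower leg, had 4482 and 4386 and *Hoxa13* had 31.7 and 29.96, at 0.16 and 0.11, the 2 genes of the cluster above 0. The log2 fold changes of *Hoxa2*, *Hoxa4* and *Hoxa7* ran from -0.33 to -0.16. Of the 5 HOX genes with more than 1 usable probe, *Hoxa3*, *Hoxa9*, *Hoxa10* and *Hoxc6* had their probes on the same side of 0, and *Hoxb3* did not.

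**Figure D4:**
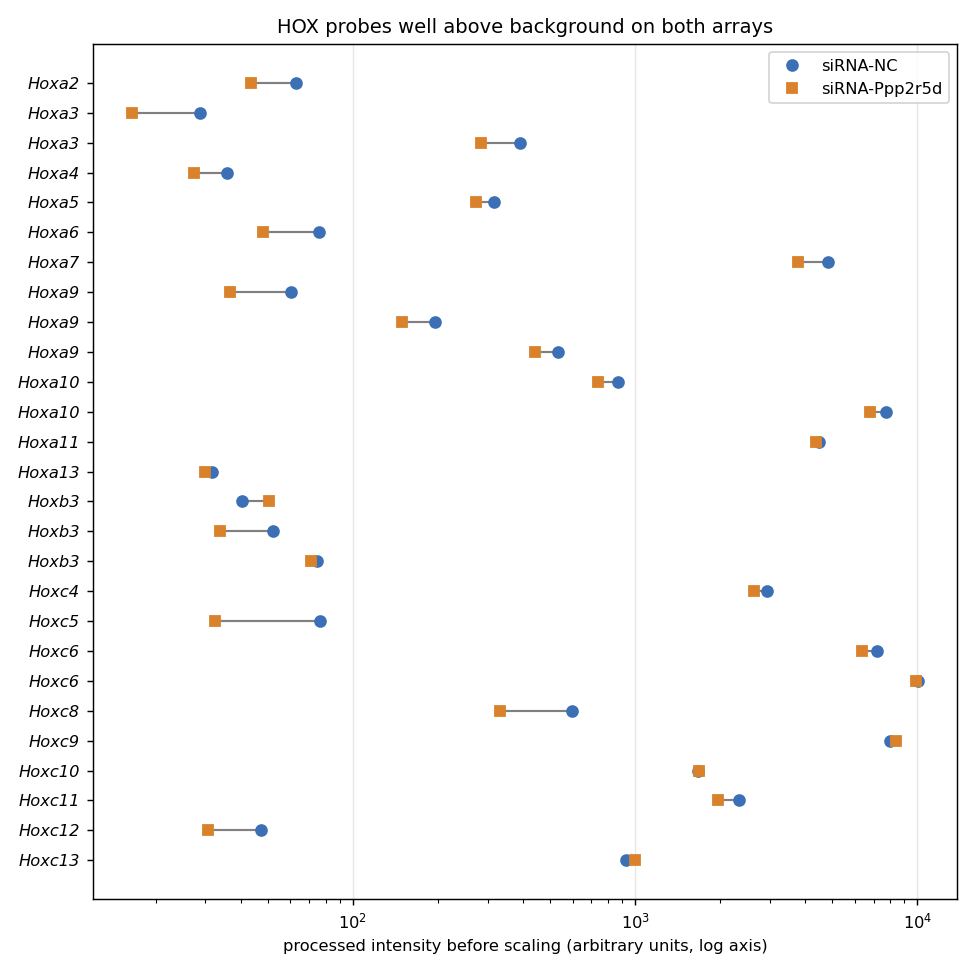
Processed intensity before scaling (log axis, arbitrary units) of 27 of the 28 HOX probes well above background on both arrays. Circles are siRNA-NC, squares siRNA-*Ppp2r5d*, and a line joins the 2 arrays of a probe. The siRNA-*Ppp2r5d* array was dimmer as a whole, with a 75th percentile of 519 against 593, which scaling removes. Most pairs lie close together, and *Hoxc5*, from 76.3 to 32.5, has the longest line.

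Brightness went along with the size of the change. The 9 genes with a probe of 1000 or more with siRNA-NC had log2 fold changes from -0.16 to 0.26, with a median of 0.043, against 0.056 over 9589 genes of all kinds that bright. The 5 genes from 100 to 1000 had a median of -0.27 and a range from -0.65 to 0.30, against a median of -0.040 over 5845 genes. The 7 genes under 100 had a median of -0.33 and a range from -1.04 to 0.11, against 0.018 over 4916 genes. For probes spotted many times, the SD of the log2 fold change between spots had a median of 0.036 over 283 probes, and of 0.21 over the 5 of them with an intensity from 20 to 100. What part of the changes of dim HOX genes came from such error was not tested.

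HOX proteins bind DNA with TALE homeodomain partners of the PBX, MEIS and PREP families, and all 9 such genes were on. Of these, 1 was at least 1.5-fold higher and 1 lower, against 3.86% and 5.43% of all genes, and their median was -0.033. *Pknox2* had 290 with siRNA-NC and 475 with siRNA-*Ppp2r5d*, 1.87-fold higher, with its second probe off. *Meis3* was lower on each of 3 probes, with 92.3 and 55.5, 797 and 485, and 53.9 and 26.5, a mean of 1.55-fold.

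RNA of the genes listed for the machinery that holds HOX clusters silent or active was on, with each gene mean within 1.5-fold. Polycomb silences HOX clusters in part by methylation of histone H3 at lysine 27, a mark that demethylases remove. All 26 genes listed for Polycomb and for these demethylases were on, with log2 fold changes from -0.40 to 0.34 and a median of 0.024. All 11 genes listed for the MLL complex, which keeps HOX clusters active, were on as well, from -0.58 to 0.24 with a median of 0.027. Of genes beside the clusters, 9 of 11 were on and none passed 1.5-fold, with a median of -0.004.

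Retinoic acid, which induces 3′ HOX genes in the embryo, has a pathway that was measured by a list of its own, of which not every gene is reported here. Of 17 such genes on the array 14 were on, 3 of them at least 1.5-fold higher, against 3.86% of all genes, and 2 of these past 2-fold, against 1.08%. *Crabp1*, which binds retinoic acid in the cytoplasm, had 212 and 2556 on its 2 probes with siRNA-NC and 755 and 8570 with siRNA-*Ppp2r5d*, 3.95-fold higher. *Cyp26a1*, the enzyme that breaks retinoic acid down, had 153 and 299, 2.23-fold higher.

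*Aldh1a3*, an enzyme that makes retinoic acid, had 40.8 and 171 with siRNA-NC and 64.1 and 229 with siRNA-*Ppp2r5d* on its usable probes, 1.66-fold higher. The 3 genes higher thus include 1 that makes and 1 that breaks down the ligand. The receptors *Rara*, *Rarb* and *Rarg* had log2 fold changes of -0.13, 0.13 and 0.031 and were named after their values were seen, as the path by which the ligand reaches HOX genes.

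Of 9 other upstream regulators on the array 7 were on, with a median of 0.059, and *Cdx2* and *Cdx4*, which drive posterior HOX genes in the embryo, were off. *Cdx1* was on, with 173 and 221, a log2 fold change of 0.55. *Gmnn*, whose product geminin restrains DNA replication and binds HOX proteins, had 2005 and 616 with siRNA-NC and 984 and 271 with siRNA-*Ppp2r5d* on its usable probes, 1.88-fold lower. Markers of cycling cells moved the same way, with 6 of 7 lower, against 45.9% of all genes measured on both arrays. Of these markers 5 were at least 1.5-fold lower, against 5.43% of all genes, and their median was -0.80. Their part in the value of *Gmnn*, or of any HOX gene, was not tested.

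**Figure D5:**
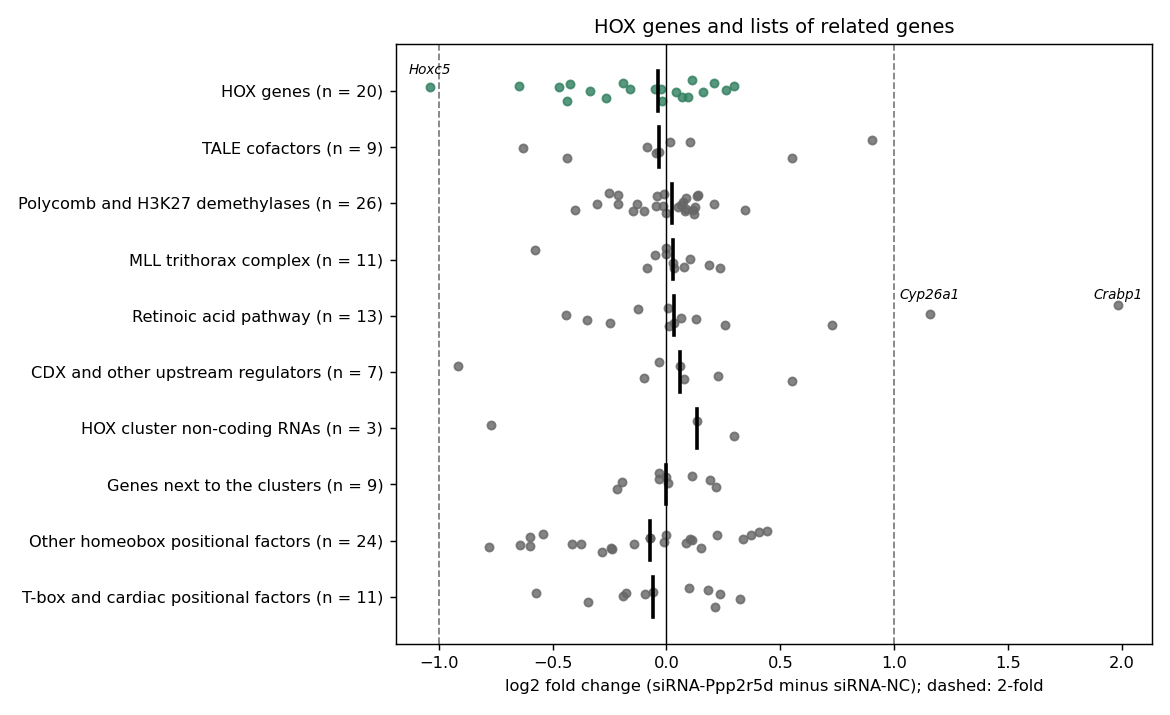
Log2 fold change (siRNA-*Ppp2r5d* minus siRNA-NC) of 20 HOX genes and of the genes measured on both arrays in 9 lists of related genes, 1 gene of the retinoic acid list not drawn. Each point is a gene, black bars are medians of the genes drawn, dashed lines mark 2-fold, and genes past them are named. *Hoxc5* is the HOX gene past 2-fold, and *Cyp26a1* and *Crabp1* of the retinoic acid pathway are the others drawn.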

How the data were processed

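Per the labels, each of the 2 arrays held RNA of 1 culture of MCMs. The authors deposited the intensity of every spot as written by Agilent Feature Extraction 10.7.1.1, with background corrected on each array and no normalization across arrays, with the software's error for it, and a table of log2 values. This deposited log2 table differed by a median of 0.000363 (siRNA-NC) and 0.000382 (siRNA-*Ppp2r5d*) from a quantile normalization of the intensities and was used as an alternative. The HOX genes and all lists of genes were chosen with earlier results of these data known.

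Control spots and outlier spots (126 with siRNA-NC and 95 with siRNA-*Ppp2r5d*, none of a HOX gene) were left out. Spots of a probe were averaged as log2 values, and each array's 75th percentile over probes (593 and 519) was subtracted. The fold change of a gene was the mean over its probes well above background on both arrays. A gene well above background on 1 array was given a bound against the lowest such signal. Genes were named where they are HOX genes on at least 1 array, or members of a list past 1.5-fold, up to 5 a list. Further genes were named outside this rule, among them *Cdx1*, *Hottip*, *Hoxa11os* and HOX genes that were off. With 1 array per condition no test was possible, and precision is limited by that number of arrays. No column of per-sample values was left unused for want of a sample. Values of some genes and some probe sequences are not reported here, while counts and medians include every gene. The gene step was tested on simulated data. Positions on the array are of build mm9, and promoters of GRCm38.p6 (RefSeq). Alternatives were quantile normalization, cyclic loess, spike-in scaling, normexp, the authors' log2 values, other filters, another choice of probe and a 1.5-fold threshold. R 4.3.3 with limma 3.58.1 and Python with NumPy and pandas were used.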

Additional observations from a re-analysis of the deposited data

How the results depend on the processing

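The number of HOX genes at least 2-fold lower was 1 and rested on *Hoxc5*. It was 0 under quantile normalization, cyclic loess, normexp with an offset of 50 and the authors' log2 values, and 0 among genes with a siRNA-NC intensity of 100 or more, a limit chosen after the data were seen. It was 2 under the 1.5-fold threshold, with *Hoxc8*, and 2 with positive and significant signals in place of well above background, with *Hoxb9*. The median log2 fold change of HOX genes was -0.26 under spike-in scaling, where that of all genes was -0.19, and 0.030 with no filter on dim probes, which takes in genes at substitute values. The value of *Ppp2r5d* was -2.51 under normexp and -2.82 under spike-in scaling. The number of HOX genes well above background on both arrays was 19 when every probe had to be so, and 23 with the looser flag or with antisense names counted. Of 72 values of 8 named genes under these alternatives, 71 kept their sign, the exception being *Hoxb3* under spike-in scaling at -0.15. *Hoxc5* ranged from -1.25 to -0.43. No paired analysis was possible because each condition had a single array, and for the same reason no array could be left out. Probes under an intensity of 100 limit what can be said of 7 of the 21 HOX genes.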

Other observations

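Other homeobox genes of positional identity were measured alongside the HOX genes. Of 34 such genes on the array, 24 were well above background on both arrays, with a median log2 fold change of -0.073 and a range from -0.78 to 0.44, and 4 were at least 1.5-fold lower with siRNA-*Ppp2r5d* and 0 higher, against 5.43% and 3.86% of all genes. *Prrx2*, a gene of limb and craniofacial mesenchyme, had 16390, 11088 and 4997 on its 3 probes with siRNA-NC and 9031, 6663 and 2903 with siRNA-*Ppp2r5d*, 1.52-fold lower. *Dlx2*, which patterns the pharyngeal arches, had 811 and 469, 1.51-fold lower. The other two were dim, *Meox1* at 42.8 and 21.8 and *Lhx2* at 48.1 and 26.9.

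Of 15 T-box and cardiac positional factors, 11 passed the background flag on each array and none was past 1.5-fold, with a median of -0.058. *Tbx5*, *Hand1*, *Hand2* and *Tcf21*, factors of the heart tube, ventricles and epicardium, were on neither array, and *Tbx18* at 3862 and 3834 was on both. Other heart factors of this list were on both arrays too, among them *Gata4* at 640 and 495, *Gata6* and *Isl1*. *Tbx20* and *Wt1* were on but dim, each on 1 probe, at 30.3 and 25.5 and at 18.4 and 18.6. *Nkx2-5*, a cardiac gene counted above among the homeobox genes, was on both at 1078 and 1001. These genes were named after their values were seen.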
